A study of Mus musculus with 20 samples.

Results

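The interaction of the Tg-SwDI transgene with loss of miR-34a was measured in all 20 of the 20 hippocampal RNA-seq libraries of the series, each from the left hippocampus of a different female C57BL/6 mouse. The 4 groups held 5 mice each: miR34a+/+ mice without the transgene (WT Non-Tg), miR34a-/- mice without it (KO Non-Tg), TgSwDI miR34a+/+ mice (WT Tg-SwDI) and TgSwDI miR34a-/- mice (KO Tg-SwDI). The mice began behavioural tests at 12 months of age, and tissue was taken after those tests. Tg-SwDI mice carry human APP with the Swedish, Dutch and Iowa mutations under the Thy1 promoter, which is active mainly in neurons, and the miR-34a deletion was constitutive and present in every cell of the body. The interaction is the log2 fold change of KO against WT in Tg-SwDI mice minus the same fold change in Non-Tg mice. It asks whether the hippocampal effect of losing miR-34a depended on the amyloid transgene. A positive log2 interaction means a higher KO effect with the transgene, and a negative one a lower KO effect. Of 39056 genes in the table, 28691 had a count in some mouse and 16107 passed the filter on low counts and were tested.

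MicroRNAs bind messenger RNAs by base pairing through a short stretch near their 5′ end, the seed, and lower the stability or translation of the bound message. The microglia, the resident macrophages of the brain, gather at amyloid deposits and shift from a homeostatic state to a disease-associated state driven by the receptor TREM2 and its adaptor TYROBP, with high expression of lysosomal proteases and lipid-handling genes. Some microglia take an interferon-responsive state in which interferon binds its receptor, JAK kinases and STAT factors are activated, and genes with an interferon-stimulated response element (ISRE) in their promoter are transcribed. The mature miR-34a-5p that the knockout mice lack is shown here with its seed, bases 2 to 8, in capitals, as given by RefSeq for GRCm38.p6 at chr4:150068473-150068494 on the plus strand.
mmu-miR-34a-5p: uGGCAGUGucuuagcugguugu

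The libraries held 19549622 to 21066868 counts each, and all levels below are in CPM, counts scaled to the normalized size of their library. Mir34a was not counted in the table used here, so the knockout itself could not be checked from it. Thy1, whose promoter drives the transgene, ranged from 685 to 769 CPM without the transgene and from 1900 to 3320 CPM with it, so every library followed its transgene label. The Thy1 log2 interaction was 0.38 (standard error 0.09, edgeR adjusted p = 0.0504), with 2178 ± 163 CPM in WT and 2821 ± 315 CPM in KO Tg-SwDI mice (mean ± SD, n = 5). Between those Tg-SwDI groups the log2 fold change of Thy1 in KO against WT was 0.37 (standard error 0.06, edgeR adjusted p = 0.00416). The part of this difference in the results below was not tested. Choroid plexus tissue stood apart between libraries. The summed CPM of 16 choroid plexus markers was 3090, 464, 5090, 310 and 6970 in WT Non-Tg mice, 273 to 736 in all 5 KO Non-Tg mice, 407 in WT Tg-SwDI replicate 7 and 5100 to 5830 in the other 4, and 422 in KO Tg-SwDI replicate 2 and 3400 to 5700 in the other 4. Ttr, the carrier protein that defines this tissue, ranged from 29.8 to 3900 CPM in WT Non-Tg mice and from 31.4 to 277 CPM in KO Non-Tg mice. Hence KO Non-Tg was the only group with low choroid plexus levels in every mouse, and results are given below also for 15 mice that were alike in these markers within each transgene pair, low in the Non-Tg groups and high in the Tg-SwDI groups. That set left out WT Non-Tg replicates 2, 4 and 7, WT Tg-SwDI replicate 7 and KO Tg-SwDI replicate 2, a choice made after the marker levels were seen. Summed neuron markers lay between 9930 and 11500 CPM except in KO Tg-SwDI replicate 8, at 13500 CPM. None of 12 lymphocyte and neutrophil markers passed the filter.

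Loss of miR-34a had an effect that depended on the transgene for 98 genes at a false discovery rate (FDR) of 0.05, which is 0.608% of the genes tested (edgeR quasi-likelihood p-values, adjusted by Benjamini and Hochberg). The KO effect was higher in Tg-SwDI mice for 69 genes (0.428%) and lower for 29 genes (0.180%). Genes of microglia, lysosomes, antigen presentation and interferon signalling made up many of the 69, whereas the 29 included the glutamate receptor genes Grin2a and Grm5. Without adjustment 2821 of the 16107 genes tested had p under 0.05, and the median log2 interaction of all genes tested was 0.01. Counts of list members at an unadjusted p under 0.05 are to be read against those 2821 of 16107 genes. The p-values set each interaction against the spread between mice of the same group. The gene just inside the threshold was Tcf4 (log2 interaction -0.25, edgeR adjusted p = 0.0489) and the gene just outside it was Upf2 (-0.32, 0.0504).

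The shape of the interaction was much alike within each set. Over the 69 genes the median log2 fold change of KO against WT was 0.39 in Tg-SwDI mice, where all 69 were above 0, and -0.20 in Non-Tg mice, where 67 of 69 were below 0. Seen the other way, the median log2 fold change of Tg-SwDI against Non-Tg was 1.22 in KO mice and 0.53 in WT mice. Over the 29 genes the KO effect was -0.22 at the median with the transgene and 0.14 without it, and the median transgene effect was -0.25 in KO mice and 0.10 in WT mice. The directions of these parts follow in good measure from how the genes were chosen, so they describe the 98 genes and test nothing.

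**Figure D1:**
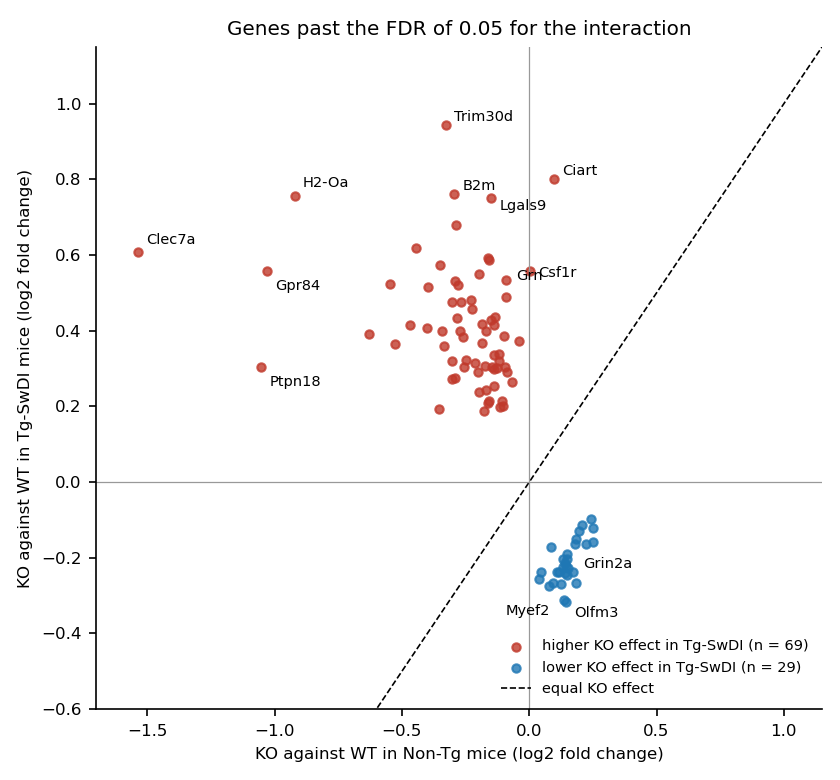
Each point is 1 of the 98 genes past the FDR of 0.05 for the interaction, with the log2 fold change of KO against WT in Non-Tg mice on the x axis and in Tg-SwDI mice on the y axis. Red points are the 69 genes above the dashed line of equal effects and blue points the 29 genes below it. All 69 lie above 0 on the y axis, and Clec7a, Ptpn18, Gpr84 and H2-Oa lie farthest to the left.

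Lysosomal genes were among those with the smallest p-values. Of 38 lysosomal genes tested, 8 had a higher KO effect with the transgene (21.1% against 0.428% of all genes) and none a lower one. The median log2 interaction of the list was 0.31 against 0.01 over all genes tested. This list and those below were chosen with earlier results of these data known, so their shares are not independent evidence. Grn (chromosome 11, 102430315 to 102437048), the gene for progranulin, a secreted protein needed for lysosome function in microglia, led the whole table. In the order of the numbers in the library labels, Grn was at 68.4, 58.1, 62.9, 59.8 and 61.2 CPM in WT Non-Tg mice, 61.3, 63.9, 57.1, 54.5 and 54.5 CPM in KO Non-Tg mice, 100, 108, 110, 120 and 110 CPM in WT Tg-SwDI mice and 177, 175, 157, 140 and 145 CPM in KO Tg-SwDI mice. The Non-Tg groups overlapped, and every KO Tg-SwDI mouse lay above every WT Tg-SwDI mouse. Its log2 interaction was 0.63 (standard error 0.09, edgeR adjusted p = 0.00861), made up of a KO effect of 0.53 with the transgene and -0.09 without it.

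Ctsb (chromosome 14, 63122462 to 63145923) encodes cathepsin B, a cysteine protease of the lysosome. Its level was 576, 549, 582, 573 and 570 CPM in WT Non-Tg, 522, 526, 551, 524 and 555 CPM in KO Non-Tg, 722, 774, 765, 782 and 745 CPM in WT Tg-SwDI and 895, 929, 908, 878 and 1030 CPM in KO Tg-SwDI mice. The Tg-SwDI groups did not overlap, while the Non-Tg groups met at 549 to 555 CPM. The Ctsb log2 interaction was 0.38 (standard error 0.06, edgeR adjusted p = 0.0146). Ctsd, the aspartic protease cathepsin D, was at 267 ± 44.9 and 221 ± 8.38 CPM in WT and KO Non-Tg mice and at 734 ± 77.1 and 967 ± 54.1 CPM in WT and KO Tg-SwDI mice (mean ± SD, n = 5), a log2 interaction of 0.67 (standard error 0.12, edgeR adjusted p = 0.0199). Man2b1, a lysosomal mannosidase, had one of 0.53 (standard error 0.10, edgeR adjusted p = 0.0199). In the 15 mice alike in choroid plexus markers the values were 0.52 for Grn, 0.35 for Ctsb, 0.34 for Ctsd and 0.33 for Man2b1, with edgeR adjusted p between 0.167 and 0.311, and the median of the 38 lysosomal genes was 0.17.

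Promoters of lysosomal genes can hold the CLEAR element, the binding letters of the TFEB family of transcription factors. Its core TCACGTGA, searched on both strands after the called genes were known, stood in the RefSeq promoter window (250 bases before to 50 after a start) of 2 of the 54 genes with a higher KO effect that had such a window, of 1 of 20 with a lower one and in 1.95% of 12054 genes. The 2 genes were Ctsd and Ctsa, which encodes a protective carboxypeptidase of the lysosome. Both windows are shown 5′ to 3′ on the strand of the gene with the core in capitals, since these are 2 of the 8 lysosomal genes called. They lie at chr7:142387778-142388077, minus strand, for Ctsd and at chr2:164833523-164833822, plus strand, for Ctsa (GRCm38.p6).
Ctsd: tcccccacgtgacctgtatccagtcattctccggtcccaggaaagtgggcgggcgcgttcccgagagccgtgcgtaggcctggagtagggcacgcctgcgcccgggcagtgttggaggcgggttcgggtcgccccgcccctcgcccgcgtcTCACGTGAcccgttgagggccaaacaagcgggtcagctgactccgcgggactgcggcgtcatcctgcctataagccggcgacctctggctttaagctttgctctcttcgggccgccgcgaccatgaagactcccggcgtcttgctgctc
Ctsa: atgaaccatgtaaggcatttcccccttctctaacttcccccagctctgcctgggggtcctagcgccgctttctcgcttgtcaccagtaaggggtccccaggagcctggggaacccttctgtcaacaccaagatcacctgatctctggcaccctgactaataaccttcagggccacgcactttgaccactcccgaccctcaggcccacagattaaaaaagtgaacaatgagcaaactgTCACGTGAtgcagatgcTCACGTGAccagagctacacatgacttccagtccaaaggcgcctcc

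The genes of the disease-associated state had the largest share of calls among the lists. Of 36 tested, 9 had a higher KO effect with the transgene (Tyrobp, B2m, Ctsb, Ctsd, Ctsa, Trem2, Clec7a, Cd68 and Gusb), which is 25.0% against 0.428% of all genes, and 35 of 36 had a log2 interaction above 0 with a median of 0.61. The study had already reported several of these genes as raised in KO Tg-SwDI mice, so this share is not independent evidence. The lists share members. Ctsb, Ctsd, Ctsa, Cd68 and Gusb were also among the 8 lysosomal calls, and B2m was also called in the interferon-responsive and MHC class I lists. Trem2 (chromosome 17, 48346401 to 48354147), the lipid-sensing receptor of microglia, was at 14.3, 11.1, 11.9, 12.2 and 12.5 CPM in WT Non-Tg, 10.7, 9.58, 10.1, 9.45 and 10.4 CPM in KO Non-Tg, 66.1, 71.7, 71.4, 71.3 and 58.1 CPM in WT Tg-SwDI and 105, 101, 89.4, 72.2 and 104 CPM in KO Tg-SwDI mice. Every KO mouse lay below every WT mouse without the transgene, and every KO mouse above every WT mouse with it. The Trem2 log2 interaction was 0.78 (standard error 0.13, edgeR adjusted p = 0.0146). Tyrobp, its signalling adaptor, was at 13.6 ± 2.13, 10.7 ± 0.819, 66.4 ± 7.94 and 87.5 ± 9.15 CPM in WT Non-Tg, KO Non-Tg, WT Tg-SwDI and KO Tg-SwDI mice (mean ± SD, n = 5), a log2 interaction of 0.74 (standard error 0.14, edgeR adjusted p = 0.0199). A pair of well known genes of this state, looked up after their values were seen, were not past the threshold, namely Cst7 (0.95, edgeR adjusted p = 0.261, at 0.402 to 0.546 CPM on average in the Non-Tg groups) and Apoe (0.33, 0.0641).

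The same genes were less separated in the mice alike in choroid plexus markers. The median log2 interaction of the disease-associated list was 0.57 with the choroid plexus level as a covariate, where 6 of the 9 genes were still called (Tyrobp, B2m, Ctsb, Ctsd, Trem2 and Gusb), and 0.27 in the 15 mice, where none was called by edgeR. In single mice, the mean log2(CPM + 1) of the 36 genes was 4.66, 4.47 and 4.57 in the 3 WT Non-Tg mice with high choroid plexus markers, 4.29 and 4.39 in the 2 with low ones, and 4.25 to 4.37 in KO Non-Tg mice. In Tg-SwDI mice it was 5.86 to 6.08 in WT and 6.18 to 6.52 in KO mice, which did not overlap, and the KO mouse with low choroid plexus markers had the highest value. The part of choroid plexus tissue in the Non-Tg difference was not tested beyond these fits. In tissue of mixed cells, more microglia and more RNA per microglial cell cannot be told apart, here or for any other list.

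**Figure D2:**
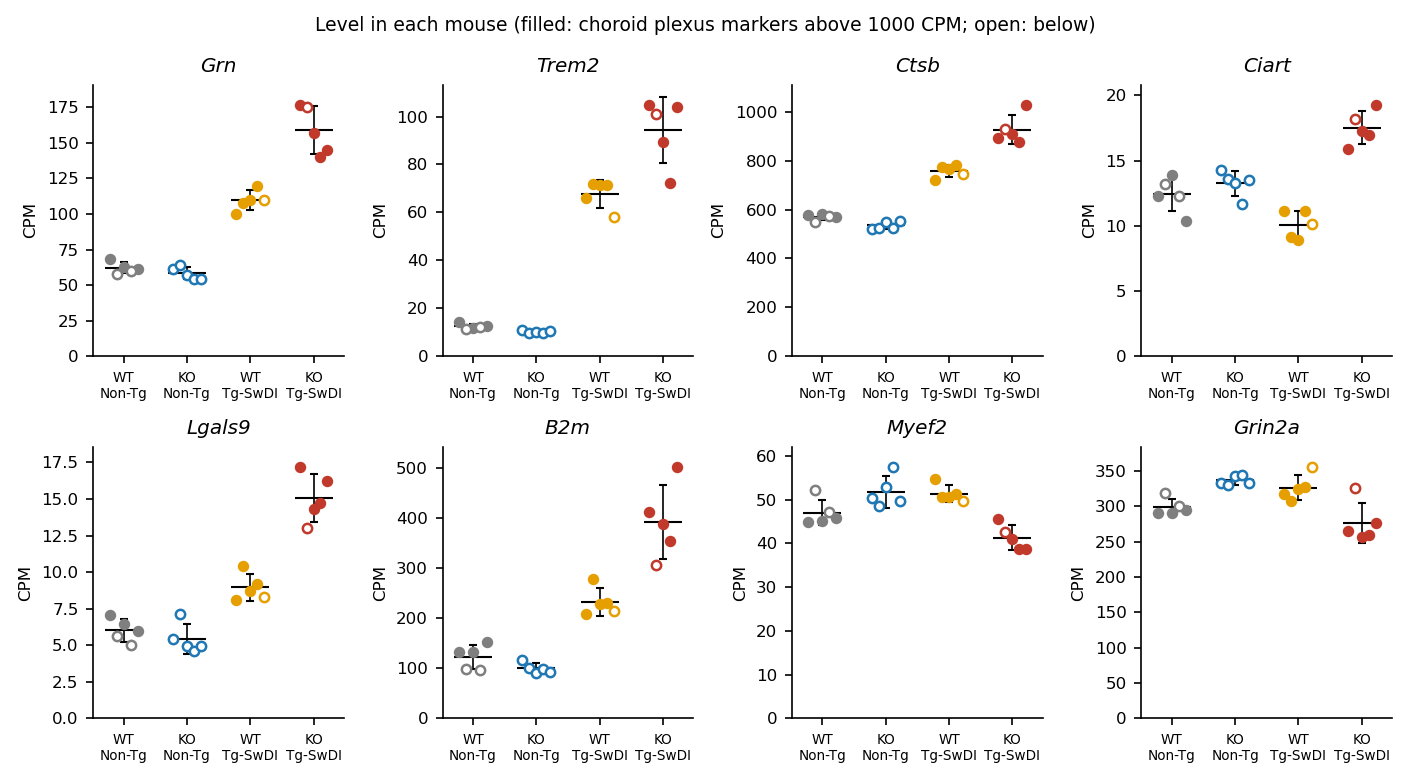
Level of 8 genes in CPM (y axis, from 0) in each mouse of the 4 groups (x axis), with horizontal lines for group means and bars for 1 SD (n = 5). Filled points are mice with summed choroid plexus markers above 1000 CPM and open points the rest. For Grn, Trem2, Ctsb, Ciart, Lgals9 and B2m the KO Tg-SwDI mice lay above all WT Tg-SwDI mice, and for Myef2 below all of them.

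Microglial identity genes were included in the interaction. Of 20 homeostatic microglial genes 2 had a higher KO effect with the transgene (Csf1r and Selplg), against 0.428% of all genes. All 20 had a log2 interaction above 0, with a median of 0.43. With the choroid plexus level as a covariate only Csf1r was still called, and the list median was 0.44. In the 15 mice the list median was 0.25 and edgeR called none. Csf1r, the receptor for CSF1 and IL-34 on which microglia depend for survival, was at 131, 91, 105, 96.8 and 101 CPM in WT Non-Tg, 109, 115, 103, 94.3 and 105 CPM in KO Non-Tg, 162, 193, 196, 192 and 193 CPM in WT Tg-SwDI and 277, 307, 272, 267 and 257 CPM in KO Tg-SwDI mice. The Non-Tg groups overlapped fully and the Tg-SwDI groups did not overlap. Its log2 interaction was 0.56 (standard error 0.11, edgeR adjusted p = 0.0199), with a KO effect of 0.56 in Tg-SwDI mice and 0.00 in Non-Tg mice, and it was 0.36 in the 15 mice (edgeR adjusted p = 0.294). Of 29 classical miR-34a target genes Csf1r was the only one called (3.45% against 0.428% of all genes), and the median of that list was 0.06.

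Complement and Fc receptor genes, through which microglia take up tagged material, had 3 of 18 members called (C1qc, Fcer1g and C1qb), which is 16.7% against 0.428% of all genes, and a median log2 interaction of 0.66 in 20 mice and 0.32 in the 15 mice. C1qc, a chain of the recognition molecule C1q, was at 65.3, 42.9, 49.9, 46.9 and 54 CPM in WT Non-Tg, 44.6, 46.8, 40.4, 44.3 and 44.9 CPM in KO Non-Tg, 137, 170, 165, 156 and 148 CPM in WT Tg-SwDI and 230, 226, 246, 186 and 195 CPM in KO Tg-SwDI mice. WT Non-Tg replicate 2 was high, and the Tg-SwDI groups did not overlap. The log2 interaction was 0.71 (standard error 0.13, edgeR adjusted p = 0.0199) for C1qc, 0.82 (standard error 0.15, edgeR adjusted p = 0.0199) for C1qb and 0.93 (standard error 0.17, edgeR adjusted p = 0.0199) for Fcer1g, the signalling chain of Fc receptors. In the 15 mice these were 0.47, 0.57 and 0.72, with edgeR adjusted p of 0.203 to 0.305.

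Interferon-responsive genes differed widely between mice of the same group. Of the 53 genes of the interferon-responsive microglial signature, 52 had a log2 interaction above 0, and the median was 0.90. An unadjusted p under 0.05 was found for 43 of them, against 2821 of all 16107 genes tested. Only Lgals9, Ly6e and B2m were past the FDR of 0.05 by edgeR's quasi-likelihood test (5.66% against 0.428% of all genes). The list is a published signature that the study applied to these samples, so its direction is not independent evidence. The mean log2(CPM + 1) of the 53 genes was 2.37 to 3.01 in WT Non-Tg, 2.36 to 2.82 in KO Non-Tg and 2.97 to 3.14 in WT Tg-SwDI mice. In KO Tg-SwDI mice it was 4.11, 3.57, 3.91, 3.84 and 3.01, so that 4 mice lay above all others and replicate 8 lay within the WT range. The library of replicate 8 also had the lowest normalization factor of all, at 0.901 (0.981 in the next lowest). Its limma voom quality weight was the lowest too, at 0.204 (0.642 in the next lowest). The part of library quality in its interferon level was not tested. Leaving out 1 mouse gave 1 to 21 calls of the 53, limma voom with sample quality weights gave 33, DESeq2 gave 17 and the 15 mice gave none, with a median of 0.54. Over all genes these settings called 14 to 500, 504, 473 and 0, against 98 in the reported fit.

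The spread is seen in single genes of the signature. Oasl2, an antiviral gene induced by interferon and named after its values were seen, was at 6.01, 4.56, 9.16, 3.8 and 10.5 CPM in WT Non-Tg, 8.08, 9.63, 5.65, 3.79 and 4.35 CPM in KO Non-Tg, 8.4, 10.6, 8.54, 12.4 and 10.7 CPM in WT Tg-SwDI and 50.1, 17.5, 33.7, 45 and 13.1 CPM in KO Tg-SwDI mice. All 5 KO Tg-SwDI mice were above the others, over a wide range, and the log2 interaction of 1.77 (standard error 0.54) had an edgeR adjusted p of 0.123. Lgals9 (chromosome 11, 78962974 to 78984946), which encodes the secreted lectin galectin-9, varied less. It was at 7.05, 5.6, 6.43, 5 and 5.97 CPM in WT Non-Tg, 5.41, 7.16, 4.97, 4.61 and 4.98 CPM in KO Non-Tg, 8.12, 10.4, 8.74, 9.18 and 8.32 CPM in WT Tg-SwDI and 17.2, 13, 14.3, 14.7 and 16.2 CPM in KO Tg-SwDI mice, with a log2 interaction of 0.90 (standard error 0.16, edgeR adjusted p = 0.0156). The Tg-SwDI groups of Lgals9 did not overlap, replicate 8 included. Ifit3 and Isg15, also named after their values were seen, had log2 interactions of 1.24 (edgeR adjusted p = 0.269) and 1.43 (0.225).

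**Figure D3:**
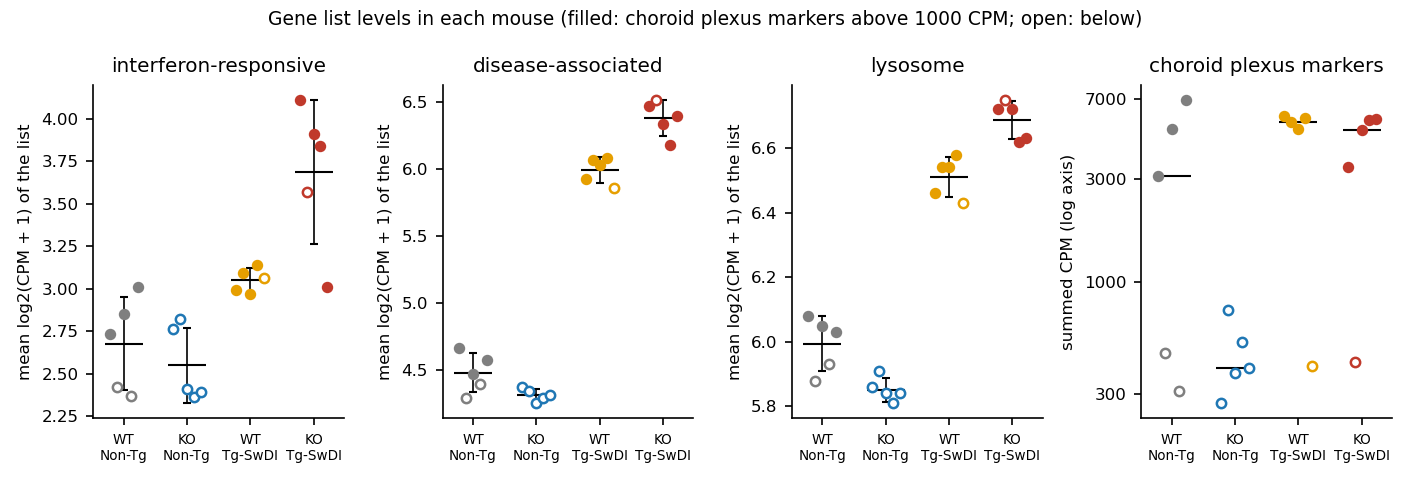
Level of 3 gene lists in each mouse, as the mean log2(CPM + 1) of their members (first 3 panels, lines for means and bars for 1 SD, n = 5), and the summed CPM of the choroid plexus markers (last panel, log axis, lines for medians). Filled points are mice with choroid plexus markers above 1000 CPM. KO Tg-SwDI replicate 8 stands at 3.01 on the interferon-responsive list, among the WT Tg-SwDI mice, and the KO Non-Tg group is the one with only open points.

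B2m, the light chain shared by all MHC class I molecules, was at 132, 98.3, 133, 97.2 and 153 CPM in WT Non-Tg, 117, 100, 91.4, 98.9 and 93.1 CPM in KO Non-Tg, 209, 279, 228, 230 and 214 CPM in WT Tg-SwDI and 413, 306, 388, 355 and 503 CPM in KO Tg-SwDI mice. The Tg-SwDI groups did not overlap. Its log2 interaction was 1.06 (standard error 0.19, edgeR adjusted p = 0.0199). All 22 MHC class I presentation genes had a log2 interaction above 0, with a median of 0.82, and 2 were called (9.09% against 0.428% of all genes). These were B2m and Psme1, a regulator of the proteasome that cuts peptides for presentation (0.44, standard error 0.09, edgeR adjusted p = 0.0214). Of 9 MHC class II genes 1 was called (11.1% against 0.428% of all genes), H2-Oa, a regulator of peptide loading, with a list median of 1.13. H2-Oa was low everywhere, at 0.946, 0.843, 0.704, 0.5 and 0.573 CPM in WT Non-Tg, 0.431, 0.379, 0.29, 0.384 and 0.387 CPM in KO Non-Tg, 1.22, 2.32, 1.87, 1.35 and 1.34 CPM in WT Tg-SwDI and 3.03, 2.77, 3, 2.36 and 2.53 CPM in KO Tg-SwDI mice. KO mice lay below all WT mice in the Non-Tg pair and above all WT mice in the Tg-SwDI pair, a log2 interaction of 1.68 (standard error 0.31, edgeR adjusted p = 0.0199). The list medians were 0.42 for class I and 0.34 for class II in the 15 mice.

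In the upstream part of the interferon pathway, of 18 genes of interferon receptors and JAK-STAT signalling only Ifnar2, a chain of the type I interferon receptor, was called. That is 5.56% against 0.428% of all genes, and 13 of 18 were above 0 with a median of 0.36. Ifnar2 was at 17.5, 15.2, 20.1, 16.5 and 18.1 CPM in WT Non-Tg, 15.4, 17.2, 14.7, 14.3 and 16.1 CPM in KO Non-Tg, 20.6, 18.4, 19.9, 21 and 16.6 CPM in WT Tg-SwDI and 21.4, 24.9, 24.4, 24.5 and 32.2 CPM in KO Tg-SwDI mice. The Tg-SwDI groups did not overlap, with the highest WT mouse at 21 and the lowest KO mouse at 21.4 CPM, and the log2 interaction was 0.57 (standard error 0.13, edgeR adjusted p = 0.0402). Of 23 nucleic acid sensors and adaptors Irf5, a transcription factor downstream of Toll-like receptors, and Unc93b1, which carries such receptors to endosomes, were called. That is 8.7% against 0.428% of all genes, with a list median of 0.57. Irf5 was at 5.67, 4.17, 4.65, 4.1 and 5.25 CPM in WT Non-Tg, 3.54, 4.17, 3.91, 3.41 and 3.87 CPM in KO Non-Tg, 8.83, 9.18, 9.43, 8.07 and 6.22 CPM in WT Tg-SwDI and 11.2, 11.1, 10.4, 9.84 and 11.1 CPM in KO Tg-SwDI mice. Its Tg-SwDI groups did not overlap and its Non-Tg groups met at 4.1 to 4.17 CPM, a log2 interaction of 0.70 (standard error 0.16, edgeR adjusted p = 0.0402). With the choroid plexus covariate the log2 interaction was 0.47 for Ifnar2 (edgeR adjusted p = 0.112), 0.59 for Irf5 (0.105) and 0.50 for Unc93b1 (0.122), none past the threshold. In the 15 mice the list medians were 0.22 for receptors and JAK-STAT and 0.25 for sensors.

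The ISRE core, GAAA then any 2 bases then GAAA on either strand, stood in the RefSeq promoter window of 5 of 54 genes with a higher KO effect (9.26%), of none of 20 with a lower one and of 3.68% of the 12054 tested genes that had a window. The 5 genes were B2m, Lgals9, Psme1, Shisa5 and Trim30d. The windows of 3 of them are shown because they belong to the interferon-responsive and antigen presentation results above, 5′ to 3′ on the strand of the gene, with each match in capitals. They are chr2:122147437-122147736, plus strand, for B2m, chr11:78984875-78985174, minus strand, for Lgals9 and chr14:55578244-55578543, plus strand, for Psme1 (GRCm38.p6).
B2m: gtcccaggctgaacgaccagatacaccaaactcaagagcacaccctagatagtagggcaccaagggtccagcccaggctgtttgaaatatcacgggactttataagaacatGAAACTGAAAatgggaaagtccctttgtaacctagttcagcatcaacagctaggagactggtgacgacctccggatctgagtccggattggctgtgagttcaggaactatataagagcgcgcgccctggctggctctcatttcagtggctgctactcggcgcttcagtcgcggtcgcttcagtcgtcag
Lgals9: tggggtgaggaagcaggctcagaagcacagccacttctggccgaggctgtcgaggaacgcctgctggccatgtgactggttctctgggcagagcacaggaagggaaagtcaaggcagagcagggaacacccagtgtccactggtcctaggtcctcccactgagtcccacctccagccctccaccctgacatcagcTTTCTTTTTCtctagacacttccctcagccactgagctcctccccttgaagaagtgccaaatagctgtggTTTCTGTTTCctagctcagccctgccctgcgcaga
Psme1: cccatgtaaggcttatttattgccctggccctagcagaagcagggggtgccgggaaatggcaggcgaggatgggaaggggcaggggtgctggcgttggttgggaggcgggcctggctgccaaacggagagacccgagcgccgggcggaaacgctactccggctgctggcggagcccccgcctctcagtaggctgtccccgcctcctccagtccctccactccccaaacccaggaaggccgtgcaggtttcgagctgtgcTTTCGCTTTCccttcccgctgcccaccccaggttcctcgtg
The core of the PU.1 site, GAGGAAGT, bound by the factor that sets macrophage identity and searched after the called genes were known, was in 9.26% of the 54 windows, among them that of C1qc, in 1 of 20 and in 3.36% of all.

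Among the genes past the FDR of 0.05, those with the largest positive interactions had few counts without the transgene. Clec7a, a receptor for fungal sugars that marks plaque-associated microglia, was at 3.83, 0.793, 1.22, 1.2 and 1.86 CPM in WT Non-Tg, 0.431, 0.854, 0.531, 0.48 and 0.774 CPM in KO Non-Tg, 24.6, 26.3, 29.1, 26 and 20.8 CPM in WT Tg-SwDI and 45.7, 48.4, 35, 28.1 and 35.9 CPM in KO Tg-SwDI mice. WT Non-Tg replicate 2 was high, and the Tg-SwDI groups overlapped by 1 mouse. Its log2 interaction was 2.14 (standard error 0.47, edgeR adjusted p = 0.0461), of which the KO effect in Non-Tg mice gave -1.54, and it was 1.14 in the 15 mice (edgeR adjusted p = 0.313). Gpr84, a receptor for medium-chain fatty acids, had 1.59 (standard error 0.32, edgeR adjusted p = 0.0199), Ptpn18, a phosphatase, had 1.36 (standard error 0.27, edgeR adjusted p = 0.0199), and both were lower in the 15 mice, at 0.88 and 0.79. Trim30d, a member of an interferon-induced family of near copies whose reads may be shared among them, had 1.27 (standard error 0.27, edgeR adjusted p = 0.0221), with 6.91 ± 1.58 CPM in KO and 3.60 ± 0.671 CPM in WT Tg-SwDI mice (mean ± SD, n = 5).

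Among the other genes with the smallest p were Gpx1, Slc11a1, Myo1e and Shisa5. Gpx1, a peroxidase that removes hydrogen peroxide, was at 37.3, 33, 37, 36.5 and 38.1 CPM in WT Non-Tg, 32.3, 33.5, 35.3, 32.3 and 34.1 CPM in KO Non-Tg, 38.7, 44.4, 40.7, 39.7 and 36.8 CPM in WT Tg-SwDI and 50.6, 48.9, 55.3, 48.4 and 50.3 CPM in KO Tg-SwDI mice. The first 3 groups overlapped in part and the last lay above them all, a log2 interaction of 0.46 (standard error 0.08, edgeR adjusted p = 0.0146). Slc11a1, a metal transporter of phagosomes, had a log2 interaction of 1.02 (standard error 0.18, edgeR adjusted p = 0.0156), which was 0.69 in the 15 mice. Myo1e, a motor protein of phagocytic membranes, had 0.57 (standard error 0.10, edgeR adjusted p = 0.0156), with 0.37 in the 15 mice, and Shisa5, a p53-induced gene of the endoplasmic reticulum, had 0.58 (standard error 0.10, edgeR adjusted p = 0.0162), with 0.62 there.

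Ciart was 1 of 11 genes among the 69 whose transgene effect was below 0 in WT mice. This gene, an output and repressor of the circadian clock, was at 12.3, 13.2, 13.9, 12.3 and 10.4 CPM in WT Non-Tg, 14.3, 13.6, 13.3, 11.7 and 13.5 CPM in KO Non-Tg, 11.1, 9.13, 8.89, 11.1 and 10.1 CPM in WT Tg-SwDI and 15.9, 18.2, 17.3, 17 and 19.3 CPM in KO Tg-SwDI mice. The Non-Tg groups overlapped, and the KO Tg-SwDI mice lay above every other mouse. The log2 interaction was 0.70 (standard error 0.12, edgeR adjusted p = 0.0146) and it was 0.73 in the 15 mice, with the transgene effect at 0.40 in KO and -0.31 in WT mice. Of 15 other clock and clock output genes, looked up after Ciart was seen, none was past the FDR of 0.05 by edgeR's quasi-likelihood test. Among these 15, 5 had an unadjusted p under 0.05, against 2821 of all 16107 genes tested. DESeq2 called 3 of them and limma voom 2. Clock itself (-0.25, edgeR adjusted p = 0.104) and Dbp (0.29, 0.105) came nearest. The time of day at which the mice were killed is not given in the sources used here, and its part was not tested.

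The 29 genes with a lower KO effect in Tg-SwDI mice had small differences, with log2 interactions of -0.46 to -0.25. Myef2, an RNA-binding repressor of the myelin basic protein gene, was at 44.9, 52.1, 45.2, 47.2 and 45.9 CPM in WT Non-Tg, 50.4, 48.5, 52.8, 57.5 and 49.6 CPM in KO Non-Tg, 54.8, 50.6, 50.5, 51.2 and 49.7 CPM in WT Tg-SwDI and 45.5, 42.7, 40.9, 38.8 and 38.8 CPM in KO Tg-SwDI mice. The Tg-SwDI groups did not overlap, and the log2 interaction was -0.45 (standard error 0.08, edgeR adjusted p = 0.0156). Grin2a, a subunit of the NMDA receptor, was at 291, 319, 290, 301 and 295 CPM in WT Non-Tg, 333, 330, 343, 345 and 333 CPM in KO Non-Tg, 318, 308, 324, 327 and 356 CPM in WT Tg-SwDI and 265, 326, 257, 259 and 277 CPM in KO Tg-SwDI mice. KO mice were above WT mice without the transgene, and below them with it except for KO Tg-SwDI replicate 2. The Grin2a log2 interaction was -0.41 (standard error 0.08, edgeR adjusted p = 0.0199) and -0.39 in the 15 mice (edgeR adjusted p = 0.146).

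Among the lists of neuronal programmes, calls were made for glutamate receptors only. Of 36 glutamate and GABA receptor genes 2 had a lower KO effect, against 0.180% of all genes. These were Grin2a and Grm5, a metabotropic receptor of the postsynaptic density (-0.38, standard error 0.08, edgeR adjusted p = 0.0345). In that list 26 of 36 were below 0 and the median was -0.09. Of 23 presynaptic release genes none was past the FDR of 0.05 by edgeR's quasi-likelihood test, and DESeq2 and limma voom called 0. In this list 4 were at an unadjusted p under 0.05, against 2821 of all 16107 genes tested, and the median was 0.03. The 2 with the smallest p were Sv2b (-0.21, edgeR adjusted p = 0.189) and Stx1a (0.23, 0.248).

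Hook3, an adaptor that links cargo to dynein, was at 78.5, 87.5, 79.2, 87 and 85.8 CPM in WT Non-Tg, 106, 94.5, 93.8, 101 and 92.3 CPM in KO Non-Tg, 96.4, 84.9, 93.5, 97.4 and 98.3 CPM in WT Tg-SwDI and 88.4, 83, 89.1, 80.3 and 79.2 CPM in KO Tg-SwDI mice. The Non-Tg groups did not overlap and the Tg-SwDI groups did, so more of its log2 interaction of -0.38 (standard error 0.08, edgeR adjusted p = 0.0199) came from Non-Tg mice, at 0.22 against -0.16. Bclaf1, a nuclear RNA-processing factor, was at 131, 149, 133, 148 and 137 CPM in WT Non-Tg, 162, 157, 156, 165 and 161 CPM in KO Non-Tg, 151, 138, 140, 144 and 150 CPM in WT Tg-SwDI and 136, 140, 134, 125 and 125 CPM in KO Tg-SwDI mice. It had the same pattern, with a log2 interaction of -0.33 (standard error 0.07, edgeR adjusted p = 0.0199). Osbpl6, an oxysterol-binding protein, was at 78.3, 84.3, 75, 83 and 76.9 CPM in WT Non-Tg, 81.5, 86.9, 87.4, 90.8 and 89.4 CPM in KO Non-Tg, 83.4, 74.1, 79.6, 84.7 and 83.9 CPM in WT Tg-SwDI and 68.3, 73.3, 64.7, 66.6 and 74.7 CPM in KO Tg-SwDI mice. Its groups overlapped slightly in both pairs, and the log2 interaction was -0.36 (standard error 0.07, edgeR adjusted p = 0.0199). Rmnd5a (-0.36), Dapk1 (-0.35), Olfm3 (-0.46), Fsd1l (-0.35), Ddhd2 (-0.35), Klhl3 (-0.45) and Fam214a (-0.41) were the others with the smallest p or the largest change, with edgeR adjusted p of 0.0221 to 0.0402.

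Length and base composition separated the sets, although the contrast did not use them. The median GC content was 53.7% over the 69 genes, 43.0% over the 29 and 49.7% over all tested, and the median 3′ untranslated region (3′UTR) had 687, 3895 and 1189 bases in GENCODE M21. Once the dependence on GC content and exonic length was taken out of every library, 42 genes were called, 40 with a higher and 2 with a lower KO effect, of which 35 and 2 were among the 69 and the 29. Without that trend the log2 interaction was -0.12 for Hook3, -0.11 for Bclaf1, -0.13 for Fsd1l, -0.25 for Grin2a and -0.26 for Myef2. The part of base composition and length in the lower calls was not tested further.

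A match to the miR-34a seed, CACTGCC, was in the 3′UTR of 7 of 68 genes with a higher KO effect (10.3%), 9 of 29 with a lower one (31.0%) and 17.2% of 14688 tested genes. Long 3′UTRs hold more matches by their length alone. Among genes in the longest class, above 1849 bases, the shares were 3 of 12, 9 of 24 (37.5%) and 31.5% of all, and in the middle class, above 702 bases, they were 4 of 22 (18.2%), 0 of 5 and 15.1%. For 5 of the lower genes and 1 higher gene, 30 transcript bases around a match are shown with the match in capitals, since these genes are named above. Among called genes named above, Csf1r and Ctsa with a higher KO effect and Fsd1l with a lower one also had a match, not shown. The matches lie at chr16:9570816-9570822, minus strand, in Grin2a, chr8:26025018-26025024, minus strand, in Hook3, chr3:115125612-115125618, plus strand, in Olfm3, chr13:58005126-58005132, minus strand, in Klhl3, chr6:71389366-71389372, minus strand, in Rmnd5a and chr9:70399293-70399299, plus strand, in Myo1e (GRCm38).
Grin2a: acatatgcacaCACTGCCttgtggtcctca
Hook3: catgcagagggCACTGCCcatacccgcaga
Olfm3: tgtttgaaagtCACTGCCaaatttctgagt
Klhl3: aagctgcaggcCACTGCCcgtggcaacagg
Rmnd5a: cttaaactcctCACTGCCaggcaggggtgg
Myo1e: cactcacctgtCACTGCCaagggcgggcag

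The called genes were spread over 20 chromosomes, with at most 11 on 1 of them. Within 20 Mb of Mir34a, where a knockout line can keep sequence of another strain, 345 genes were tested and 3 were called, C1qb, C1qc and Padi2, which is 0.87% against 0.608% of all genes tested. The part of such sequence in the complement calls was not tested. All 29 genes with a lower KO effect and 97.1% of the 69 were protein coding, against 91.8% of all tested.

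Other lists had few calls. Of 20 reactive astrocyte genes 1 was called (5.0% against 0.428% of all genes) and all 20 were above 0, with a median log2 interaction of 0.53 in 20 mice and 0.28 in the 15 mice. The called gene was Cd44, a receptor for hyaluronan, at 8.98, 7.39, 6.34, 8.15 and 8.11 CPM in WT Non-Tg, 7.7, 7.11, 6.71, 7 and 6.39 CPM in KO Non-Tg, 9.53, 11.8, 11.5, 10.3 and 11.1 CPM in WT Tg-SwDI and 13.4, 18.4, 19.2, 12.8 and 17.7 CPM in KO Tg-SwDI mice. The Non-Tg groups overlapped and the Tg-SwDI groups did not, a log2 interaction of 0.74 (standard error 0.16, edgeR adjusted p = 0.0236), which was 0.70 in the 15 mice. Of 78 cytosolic ribosomal protein genes only Rpl28 was called (1.28% against 0.428% of all genes), and 69 were above 0 with a median of 0.15. Rpl28 was at 137, 126, 130, 129 and 113 CPM in WT Non-Tg, 113, 115, 108, 113 and 114 CPM in KO Non-Tg, 109, 134, 119, 116 and 118 CPM in WT Tg-SwDI and 136, 131, 145, 134 and 132 CPM in KO Tg-SwDI mice. Both pairs overlapped in part, and the log2 interaction was 0.36 (standard error 0.08, edgeR adjusted p = 0.0221).

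Metabolic and activity lists had no gene past the FDR of 0.05 in the quasi-likelihood test of edgeR, among 20 genes of cholesterol synthesis and uptake (8 at an unadjusted p under 0.05, median 0.15), 73 of the respiratory chain (19, median 0.07) and 20 neuronal immediate early genes (10, median 0.60). DESeq2 called 1, 2 and 0 genes of these lists and limma voom 1, 2 and 1. Over all genes tested, 2821 of 16107 were at an unadjusted p under 0.05 in edgeR's quasi-likelihood test. Dhcr7, the last enzyme of cholesterol synthesis, came nearest (0.49, edgeR adjusted p = 0.0532), followed by Fdft1 (0.33, 0.106). Atp5d (0.29, edgeR adjusted p = 0.0641) and Cox6a1 (0.33, 0.0687) headed the respiratory chain, and Homer1 (-0.32, 0.137) and Ier2 (0.77, 0.174) the immediate early genes. Of the 20 immediate early genes 15 had a log2 interaction above 0 and 5 below, and the list median was 0.84 in the 15 mice. The 16 choroid plexus markers had a median log2 interaction of 2.79 with none called by edgeR, DESeq2 or limma voom, and 9 were at an unadjusted p under 0.05 in edgeR's quasi-likelihood test. Of the other marker lists only striatum had a call, Pde10a with a lower KO effect (-0.37, edgeR adjusted p = 0.038). That is 1 of 10 markers, against 0.180% of all genes. The medians over neuron, astrocyte and oligodendrocyte markers were 0.04, 0.05 and 0.15. The median over 8 border macrophage markers was 0.40 with 7 above 0, and over 12 endothelial and mural markers it was 0.23 with all 12 above 0. Summed border macrophage markers were at 21.6 to 32.7 CPM in WT Non-Tg, 20.9 to 37.4 CPM in KO Non-Tg, 23.1 to 32.6 CPM in WT Tg-SwDI and 23.1 to 44 CPM in KO Tg-SwDI mice. Their part in the microglial results was not tested.

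**Figure D4:**
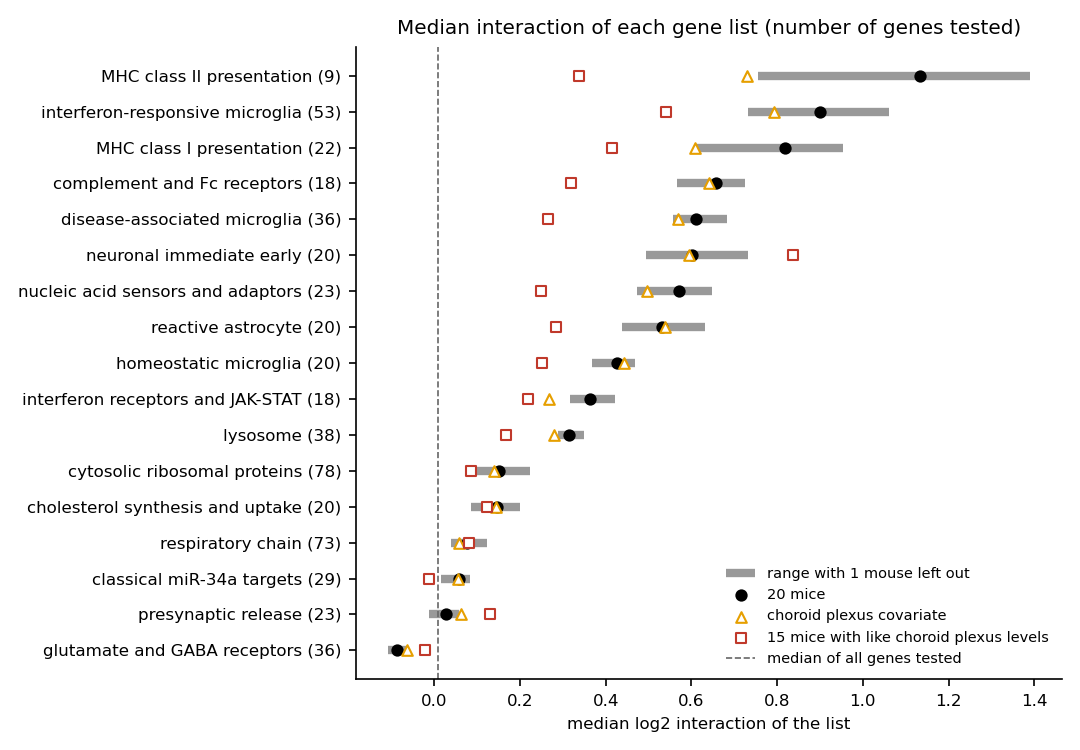
Median log2 interaction (x axis) of 17 gene lists (y axis, number of genes tested in brackets) in 20 mice (black), with the range when 1 mouse is left out (grey), with the choroid plexus level as a covariate (triangles) and in 15 mice alike in choroid plexus markers (squares). The interferon-responsive list stands at 0.90 in 20 mice and 0.54 in 15, and the glutamate and GABA receptor list is the one with a median below 0 in 20 mice.

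The number of called genes depended on the mice and the test. The direction of the called genes did not turn in any alternative in which they were fitted. Every alternative used the mice in which these genes were chosen, or a part of them, so the kept direction is not independent evidence. It was 98 in the reported fit, 473 by DESeq2, 504 by limma voom with quality weights, 31 with the choroid plexus covariate and 0 in the 15 mice by edgeR's quasi-likelihood test, where 1709 genes had an unadjusted p under 0.05 and WT Non-Tg kept 2 mice. In those 15 mice the median log2 interaction was 0.47 over the 69 genes and -0.33 over the 29, against 0.58 and -0.35 in 20 mice. With each of the 20 mice left out in turn, 14 genes were called every time, 13 with a higher KO effect (Grn, Trem2, Ctsb, Gpx1, Ciart, Slc11a1, Myo1e, Lgals9, Shisa5, H2-Oa, Ctsd, Trib1 and Gpr84) and Myef2 with a lower one. Each other gene lost its call without KO Non-Tg replicate 7, and without KO Tg-SwDI replicate 2 the count rose to 500.

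**Figure D5:**
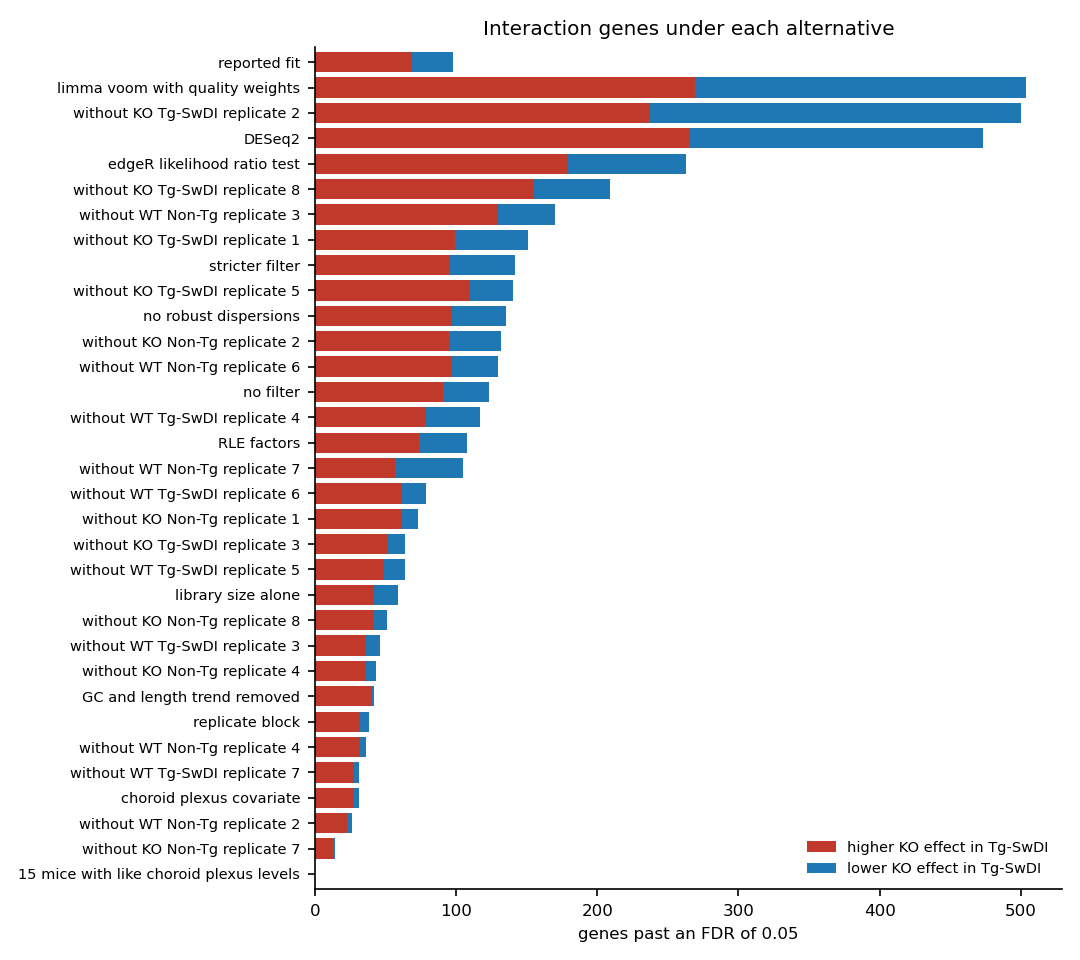
Number of genes past an FDR of 0.05 for the interaction (x axis, from 0) in the reported fit and in each alternative (y axis), with genes of a higher KO effect with the transgene in red and of a lower one in blue. The reported fit has 98 genes, and the alternatives run from 0 to 504.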

How the data were processed

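Stranded mRNA libraries of 20 left hippocampi were sequenced on DNBSEQ. The authors deposited raw read counts per gene, made with STAR and featureCounts on mm10. The tool versions, annotation release and strand setting are not given in the sources used here, so reads of overlapping or antisense genes may not be separated. Of 39056 genes, 38872 (99.5%) matched GENCODE M21.

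Genes were kept by filterByExpr (minimum count 10, minimum total 15). Counts were TMM-normalized and fitted with 1 mean per group in edgeR 4.0.16 (R 4.3.3) by the robust quasi-likelihood test, with 16 residual degrees of freedom and Benjamini-Hochberg adjustment over 16107 genes. Alternatives used DESeq2 1.42.0 and limma 3.58.1, other filters, scalings and covariates, a replicate block, and leaving out mice. Summaries used Python 3.11.15, pandas 2.3.3 and numpy 2.4.6. Tested on known changes, the fit recovered 45% of genes changed by 0.5 log2 and 77% of those changed by 1 log2, and called 8 unchanged genes.

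Genes named are the 10 with the smallest p and the 5 with the largest change (mean of at least 1 CPM) in each direction, and up to 4 called, or 2 uncalled, of each list. Members and lists were chosen with earlier results of these data known. The deviations of same-numbered mice from their group means had a median correlation of -0.04 over 16 pairs (-0.40 to 0.15). It was 0.01 between mice of different numbers. No pairing by number was seen, but a correlation over all genes can miss one that touches few genes.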

Additional observations from a re-analysis of the deposited data

Results flagged for a closer look

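The KO effect differed between Tg-SwDI and Non-Tg mice, by the test of the interaction itself, for 43 of the 60 genes named. Genes were named largely because they were past this test, so that share is fixed by the choice of genes. Over all genes tested it was 98 of 16107 (0.608%). The log2 interaction was positive for Grn (0.63), Trem2 (0.78), Ctsb (0.38), Gpx1 (0.46), Ciart (0.70), Slc11a1 (1.02), Myo1e (0.57), Lgals9 (0.90), Shisa5 (0.58), Man2b1 (0.53), Clec7a (2.14), H2-Oa (1.68), Gpr84 (1.59), Ptpn18 (1.36) and Trim30d (1.27). It was also positive for Ly6e (0.45), B2m (1.06), Ifnar2 (0.57), Irf5 (0.70), Unc93b1 (0.57), Ctsd (0.67), Tyrobp (0.74), Csf1r (0.56), Selplg (0.49), C1qc (0.71), Fcer1g (0.93), C1qb (0.82), Psme1 (0.44), Cd44 (0.74) and Rpl28 (0.36). It was negative for Myef2 (-0.45), Grin2a (-0.41), Hook3 (-0.38), Bclaf1 (-0.33), Osbpl6 (-0.36), Rmnd5a (-0.36), Dapk1 (-0.35), Olfm3 (-0.46), Fsd1l (-0.35), Ddhd2 (-0.35), Klhl3 (-0.45), Fam214a (-0.41) and Grm5 (-0.38).

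A single mouse stood far from the other 4 of its group in 2 of 76 groups of values examined, where chance gives about 1 in 20 groups. Grin2a was at 326 CPM in KO Tg-SwDI replicate 2 and at 257 to 277 CPM in the other mice of that group, with a gap of 0.711 of the range against a critical value of 0.71. Csf1r was at 162 CPM in WT Tg-SwDI replicate 3 and at 192 to 196 CPM in the others, with a gap of 0.902 of the range.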

How the results depend on the processing

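The number of genes called (98, of which 69 higher and 29 lower) was 473 (265 and 208) by DESeq2, 263 (179 and 84) by edgeR's likelihood ratio test, 504 (269 and 235) by limma voom with quality weights, 142 (96 and 46) with the stricter filter, 123 (91 and 32) without a filter, 108 (74 and 34) with RLE factors, 135 (97 and 38) without robust dispersions, 59 (42 and 17) with library size alone, 38 (32 and 6) with the replicate block, 42 (40 and 2) with GC content and length taken out, 31 (27 and 4) with choroid plexus as a covariate and 0 (0 and 0) in the 15 mice. Leaving out 1 mouse gave 14 to 500 calls, 13 to 237 higher and 1 to 263 lower. The count moved by over 1.5 times without WT Non-Tg replicates 2 (26), 3 (170) and 4 (36), KO Non-Tg replicates 4 (43), 7 (14) and 8 (51), WT Tg-SwDI replicates 3 (46), 5 (64) and 7 (31), and KO Tg-SwDI replicates 1 (151), 2 (500), 3 (64) and 8 (209). The cause of these shifts was not tested. The sign turned only for genes that were not called, and the called ones had been chosen in these same mice. App (-0.00) was at 0.00225 by DESeq2, 0.0336 by limma voom, 0.00712 without a filter, 0.00643 with the stricter filter, 0.00268 with RLE factors, 0.121 with GC content and length taken out, 0.0289 with choroid plexus as a covariate, 0.00988 in the 15 mice and -0.0207 to 0.0565 without 1 mouse, and Ttr (3.74) was at -0.71 in the 15 mice. The replicate numbers are shared across groups, and no pairing of mice by them was seen in the correlations given above. Over 60 named genes and 33 settings, 1645 values kept direction and side of the threshold, 274 lost the call and 42 gained one.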

Other observations

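App, the mouse gene whose human counterpart is the transgene, was at 1640 to 1720 CPM in WT Non-Tg, 1590 to 1710 CPM in KO Non-Tg, 1760 to 1960 CPM in WT Tg-SwDI and 1530 to 1920 CPM in KO Tg-SwDI mice, with a log2 interaction of -0.00 (edgeR adjusted p = 0.997). How far reads of the human transgene were counted for App was not tested.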
